A study of Mus musculus with 36 samples.

Results

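The 10 genes described here are targets of p53 in the tibia of a mouse model of progeria: *Cdkn1a*, *Ccng1*, *Btg2*, *Mdm2*, *Zmat3*, *Phlda3*, *Eda2r*, *Bbc3*, *Bax* and *Trp53inp1*. They were taken by name from the 56246 genes of the deposited table, each symbol standing on a row of its own or, where repeated, on the row with the highest mean. All 10 passed the filter on low values, as did 22546 genes in all. RNA was measured in bulk in 36 tibiae of 6-month mice, 12 per group with 6 females and 6 males in each. By the study's account epiphyses and marrow had been removed, which left mostly cortical bone. Transcripts of muscle and blood cells were present as well, with values below. Wild-type mice were not treated. LMNA G/G mice carry 2 copies of a human *LMNA* transgene (the label is LMNAG608G/G608G), a bacterial artificial chromosome with the progeria point mutation and a second human gene, *RAB25*, in the C57BL/6J strain, beside the mouse's own *Lmna*. They received saline (saline-treated) or an adenine base editor in a pair of AAV9 vectors (ABE-treated) by retro-orbital injection at P14, 14 days after birth. The transgene has its own human regulatory sequence and is not limited to bone.

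p53, encoded by *Trp53*, is a transcription factor that is held at a low level by the ubiquitin ligase MDM2 and accumulates when DNA is damaged or the nucleus is stressed. It binds a response element made of a pair of short sites and switches on genes for cell cycle arrest, DNA repair, apoptosis and its own inhibition. Progerin, the truncated lamin A made from the mutant *LMNA* gene, is known to cause DNA damage and early senescence, and p53 targets are a usual readout of both.

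Promoters of 8 of the 10 genes were present among 32851 mouse promoters of RefSeq (build GRCm38.p6, 250 bases before to 50 after the start site). Each was searched for the p53 decamer, the 10-base site that p53 binds, which reads the same on both strands. A full element was counted where 2 decamers followed each other with a spacer of at most 1 base and with at most 2 mismatches in all, none of them at the C or G of a core. This search was chosen after the values below were known. A full element was found in 0.682% of all promoters, and a decamer without mismatch in 8.36%. Among the members, promoters of *Cdkn1a*, *Ccng1* and *Bax* held a full element and that of *Mdm2* held a decamer. They are printed because *Cdkn1a* and *Ccng1* were among the genes that rose most, whereas *Bax* and *Mdm2* moved little. Capitals mark the match, which began at position -51 from the start site in *Cdkn1a* (chr17:29090729-29091028, plus strand, 1 mismatch), -195 in *Ccng1* (chr11:40755237-40755536, minus strand, 1 mismatch), -201 in *Bax* (chr7:45466849-45467148, minus strand, 2 mismatches and a spacer of 1 base) and -186 in *Mdm2* (chr10:117710709-117711008, minus strand).
Cdkn1a: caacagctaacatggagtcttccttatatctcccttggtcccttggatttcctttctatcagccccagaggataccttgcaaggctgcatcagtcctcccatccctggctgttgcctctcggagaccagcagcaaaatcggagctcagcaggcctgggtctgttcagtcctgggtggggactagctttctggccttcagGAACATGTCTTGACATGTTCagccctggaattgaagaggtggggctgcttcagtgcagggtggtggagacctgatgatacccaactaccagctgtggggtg
Ccng1: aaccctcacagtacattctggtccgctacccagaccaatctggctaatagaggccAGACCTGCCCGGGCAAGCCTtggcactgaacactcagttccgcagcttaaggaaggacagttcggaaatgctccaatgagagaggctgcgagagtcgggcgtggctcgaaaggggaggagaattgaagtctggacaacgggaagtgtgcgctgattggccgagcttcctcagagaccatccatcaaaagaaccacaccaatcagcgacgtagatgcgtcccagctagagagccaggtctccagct
Bax: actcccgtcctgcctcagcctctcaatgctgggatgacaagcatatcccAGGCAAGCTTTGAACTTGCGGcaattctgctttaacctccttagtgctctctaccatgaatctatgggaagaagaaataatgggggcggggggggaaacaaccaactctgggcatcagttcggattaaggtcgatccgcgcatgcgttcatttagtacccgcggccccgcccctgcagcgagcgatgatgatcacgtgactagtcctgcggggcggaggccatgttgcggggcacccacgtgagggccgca
Mdm2: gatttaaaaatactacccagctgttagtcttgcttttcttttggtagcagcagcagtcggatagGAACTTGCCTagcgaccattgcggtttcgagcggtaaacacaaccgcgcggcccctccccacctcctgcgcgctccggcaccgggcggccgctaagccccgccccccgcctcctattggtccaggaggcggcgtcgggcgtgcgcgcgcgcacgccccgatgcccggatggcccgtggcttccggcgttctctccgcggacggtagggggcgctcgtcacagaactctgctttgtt
The windows of *Phlda3*, *Btg2*, *Eda2r* and *Bbc3* held neither form, although *Eda2r* and *Phlda3* were also among the genes that rose most. Nor did a second promoter of *Cdkn1a* (chr17:29093519-29093818, plus strand), which lies downstream of the one printed. Which of these *Cdkn1a* start sites was used in the tibiae was not measured. Sequence outside the windows was not searched. A link between the marked sites and the differences was not tested. *Zmat3* and *Trp53inp1* were not among these promoters.

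In the GENCODE annotation of GRCm38, 8 of the 10 genes overlap no other gene. *Cdkn1a* (chr17:29090976-29100727, plus strand) shares its span with AC167363.2 on the opposite strand, a gene model that awaits experimental evidence and whose mean was under the filter of 0.1 scaled TPM in these strand-specific libraries. *Bax* (chr7:45461697-45466898, minus strand) shares part of its span with Gm45808 on the same strand, which is listed at 0.

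Levels are given as scaled TPM, the deposited TPM divided by a median ratio per library, which sets the median gene to the same level in all libraries. Libraries held between 48064068 and 116206662 reads on genes. The members rested on between 66 reads (*Eda2r* in a wild-type mouse) and 24899 reads (*Ccng1* in a saline-treated mouse) per library. The ABE-treated female F109436 stood apart with a scaling ratio of 0.219, and 3 LMNA G/G mice have WT in their name (saline-treated M1WT509424, ABE-treated F1WT609535 and M4WT109560) although their labels give the LMNA G/G genotype. Without these 3 mice, saline-treated and wild-type mice differed in 7 members, with 8 in ABE-treated against wild-type mice and 4 between the LMNA G/G groups, against 8, 8 and 5 with them.

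Transcripts of skeletal muscle differed between the groups. *Acta1*, the actin of skeletal muscle fibres, averaged 311 ± 211 scaled TPM in wild-type mice (SD, n = 12), against 826 ± 576 after saline and 1743 ± 897 after ABE. *Ckm*, muscle creatine kinase, had 91.3 ± 57.9, 222 ± 187 and 493 ± 267. Of 15 muscle markers, all of them detected, 12 rose in saline-treated against wild-type mice, 15 in ABE-treated against wild-type mice and 12 in ABE-treated against saline-treated mice. Their summed level ranged from 240 to 3583 scaled TPM in wild-type mice, from 400 to 9394 after saline and from 1285 to 15214 after ABE. The mean log2 level of *Acta1* and *Ckm* is called muscle content below, and the differences of the members are given without and with muscle content as a covariate. In bulk tissue, fewer cells of a type and less RNA per cell cannot be told apart.

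Comparison of saline-treated LMNA G/G with wild-type mice asks how p53 targets stand in progeroid bone. Of the 10 members 7 rose and 1 fell, and they are described here by role. Over all genes tested, 25.3% rose and 24.7% fell. The median log2 difference of the members was 0.26, and that of all genes was 0.01. With muscle content as a covariate 7 members were higher and the other 3 were not called, where 21.9% of all genes were higher and 22.2% lower. *Cdkn1a* had no overlap between the groups and lay above wild-type in all 12 mice, which was true of 2.63% of all genes, and 0 members lay below wild-type in all 12 mice, against 3.85%.

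*Cdkn1a* encodes p21, an inhibitor of cyclin-dependent kinases that halts the cell cycle. Wild-type mice had a lowest, median and highest level of 1.05, 1.58 and 2.59 scaled TPM, saline-treated mice 3.83, 6.63 and 9.19, and ABE-treated mice 6.19, 7.85 and 11.3. The lowest LMNA G/G mouse of either group stood above the highest wild-type mouse. *Cdkn1a* was 3.87-fold higher in saline-treated than in wild-type mice (log2 difference 1.95 ± 0.14, SE, adjusted p = 4.85e-13). The log2 difference was 1.74 ± 0.12 with muscle content as a covariate (adjusted p = 2.15e-12). The saline-treated female F309418 had the least muscle of the LMNA G/G mice (88.5 scaled TPM of *Acta1*) and 3.83 scaled TPM of *Cdkn1a*. The 2 wild-type mice with still less muscle, 599M and 617M, had 1.42 and 1.05. Both are males, and *Cdkn1a* averaged 1.37 scaled TPM in wild-type males and 2.11 in wild-type females.

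**Figure D1:**
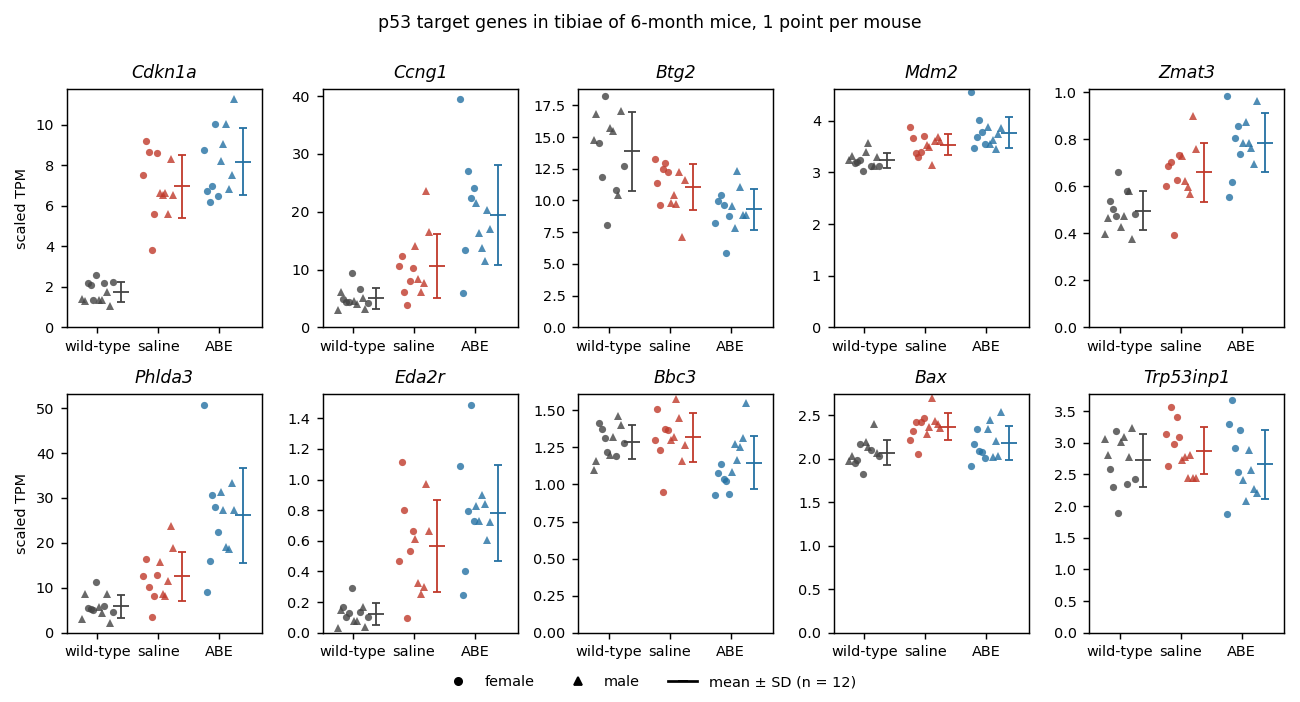
Scaled TPM (y axis, linear from 0) of the 10 members in the 3 groups, with 1 point per mouse, circles for females, triangles for males, and the mean ± SD of 12 mice at the right of each group. *Cdkn1a* is the gene whose LMNA G/G mice all sit above all wild-type mice, while *Phlda3*, *Ccng1* and *Eda2r* spread widely within each LMNA G/G group.

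*Ccng1* encodes cyclin G1, which recruits a phosphatase to MDM2. It had a lowest, median and highest level of 3.03, 4.57 and 9.48 scaled TPM in wild-type and of 3.80, 9.29 and 23.6 in saline-treated mice, with overlapping groups. The log2 difference was 0.98 ± 0.25 (adjusted p = 0.00183), and 0.34 with muscle content as a covariate (adjusted p = 0.00542). The call of *Ccng1* was lost with muscle, neutrophil, B cell and erythroid content as covariates (0.29, adjusted p = 0.189) and in females alone (0.54, adjusted p = 0.369). *Btg2*, an antiproliferative gene that acts on mRNA decay, was the most abundant member in wild-type bone and the one that fell. Its levels were 8.08, 14.7 and 18.2 scaled TPM in wild-type and 7.12, 11.5 and 13.3 in saline-treated mice, and 1 saline-treated mouse stood below all wild-type mice. The log2 difference of -0.30 ± 0.12 passed the threshold narrowly (adjusted p = 0.0330) and did not pass it with muscle content as a covariate (-0.15, adjusted p = 0.302). Leaving out any 1 of 9 mice (600M, 601F, 603F, 606M, 608M, 617M, M109432, M1WT509424 or M309451) also lost the call of *Btg2*, with log2 differences from -0.29 to -0.24 and adjusted p from 0.0501 to 0.0753.

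*Mdm2*, the ligase that marks p53 for destruction, had 3.03, 3.22 and 3.56 scaled TPM in wild-type and 3.13, 3.57 and 3.87 in saline-treated mice. Its log2 difference was 0.12 ± 0.04 (adjusted p = 0.00789), and 0.09 with muscle content as a covariate (adjusted p = 0.0657). *Zmat3*, an RNA-binding zinc finger protein, had 0.375, 0.480 and 0.662 scaled TPM in wild-type and 0.392, 0.657 and 0.90 in saline-treated mice, of which 6 of 12 stood above all wild-type mice. Its log2 difference was 0.34 ± 0.09 (adjusted p = 0.00243), 0.14 with muscle content as a covariate (adjusted p = 0.0434) and 0.16 in females alone, where it was not called (adjusted p = 0.444). *Trp53* itself had 3.55 ± 0.40 scaled TPM in wild-type and 3.64 ± 0.49 in saline-treated mice (SD, n = 12), a log2 difference of 0.03 (adjusted p = 0.787).

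Members of the death pathways differed widely among themselves. *Eda2r*, a receptor of the TNF family that binds ectodysplasin A2, had a lowest, median and highest level of 0.0336, 0.116 and 0.293 scaled TPM in wild-type and 0.0967, 0.573 and 1.11 in saline-treated mice. All but 2 of the 12 saline-treated mice stood above the highest wild-type mouse. The log2 difference was 1.49 ± 0.24 (adjusted p = 5.34e-06), a 2.81-fold rise on a scale to which 0.1 had been added, which understates changes at these low levels, and it was 0.97 with muscle content as a covariate (adjusted p = 8.87e-06). *Phlda3*, a pleckstrin homology protein that competes with AKT for membrane lipids, had 2.15, 5.33 and 11.3 scaled TPM in wild-type and 3.43, 12 and 23.8 in saline-treated mice. Its log2 difference was 1.07 ± 0.27 (adjusted p = 0.00135), 0.39 with muscle content as a covariate (adjusted p = 0.00138) and 0.68 in females alone, where it was not called (adjusted p = 0.260).

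*Bax*, the pore former of mitochondrial apoptosis, was narrowly spread, with 1.82, 2.05 and 2.40 scaled TPM in wild-type and 2.05, 2.38 and 2.7 in saline-treated mice. Its log2 difference was 0.19 ± 0.04 (adjusted p = 0.000386) and the same size with muscle content as a covariate (0.19, adjusted p = 0.000980). *Bbc3*, which encodes the BH3-only protein PUMA, had 1.09, 1.29 and 1.46 scaled TPM in wild-type and 0.952, 1.31 and 1.58 in saline-treated mice, a log2 difference of 0.03 ± 0.07 (adjusted p = 0.754), and of 0.01 with muscle content as a covariate (adjusted p = 0.914). *Trp53inp1*, a stress protein that acts in autophagy and cell death, had 1.89, 2.78 and 3.23 scaled TPM in wild-type and 2.44, 2.79 and 3.56 in saline-treated mice. Its log2 difference was 0.08 ± 0.09 (adjusted p = 0.510), and 0.23 with muscle content as a covariate, where it passed the threshold (adjusted p = 0.0253). The study describes the groups as littermates, but the labels do not tie mice to litters and wild-type mice belong to a number series of their own, so no fit with litter could be made.

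Comparison of ABE-treated LMNA G/G with wild-type mice asks how far the same genes stand from wild-type after ABE treatment. It shares its wild-type mice with the comparison above. Of the members 6 rose and 2 fell, where 32.9% of all genes rose and 34.0% fell. The median log2 difference of the members was 0.39, and that of all genes was -0.02. With muscle content as a covariate 6 members were higher and the other 4 were not called, where 18.7% of all genes were higher and 17.1% lower. The highest muscle content of a wild-type mouse was 8.83 (604F). All ABE-treated mice except F1WT609535 (7.21) and F309431 (8.52) lay above it. The differences with this covariate therefore rest largely on a straight line drawn beyond the range of wild-type mice. *Cdkn1a* was again the member with no overlap above wild-type (3.75% of all genes), and 0 members lay wholly below (4.74%).

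*Cdkn1a* was 4.56-fold higher in ABE-treated than in wild-type mice (log2 difference 2.19 ± 0.14, adjusted p = 3.02e-14) and 1.75 higher on the log2 scale with muscle content as a covariate (adjusted p = 8.78e-10). *Phlda3* had a lowest, median and highest level of 9.09, 27.4 and 50.8 scaled TPM in ABE-treated mice, and 11 of the 12 stood above all wild-type mice. Its log2 difference from wild-type was 2.15 ± 0.27 (adjusted p = 3.38e-08), and 0.76 with muscle content as a covariate (adjusted p = 1.65e-05). *Ccng1* had 6.04, 18.6 and 39.5 scaled TPM and a log2 difference of 1.86 ± 0.25 (adjusted p = 1.59e-07), which was 0.56 with muscle content as a covariate (adjusted p = 0.000916). For both genes the highest mouse was F109436, which also held the most *Acta1* (3758 scaled TPM), and the lowest was F1WT609535, which held the least of the ABE-treated mice (284 scaled TPM). *Eda2r* had 0.249, 0.765 and 1.49 scaled TPM and a log2 difference of 1.96 ± 0.24 (adjusted p = 2.61e-08), which was 0.90 with muscle content as a covariate (adjusted p = 0.000808).

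The other members moved by less than 1 log2 unit. *Zmat3* had 0.556, 0.785 and 0.986 scaled TPM in ABE-treated mice and a log2 difference from wild-type of 0.57 ± 0.09 (adjusted p = 2.18e-06), which did not pass the threshold with muscle content as a covariate (0.15, adjusted p = 0.0934). *Mdm2* had 3.44, 3.72 and 4.55 scaled TPM and a log2 difference of 0.21 ± 0.04 (adjusted p = 1.35e-05), which was called with muscle content as a covariate (0.14, adjusted p = 0.0267) and not with neutrophil, B cell and erythroid content added (0.098, adjusted p = 0.309). *Btg2* had 5.90, 9.21 and 12.3 scaled TPM and fell by 0.56 on the log2 scale (SE 0.12, adjusted p = 0.000116), and its difference with the covariate was -0.25 (adjusted p = 0.192). *Bbc3* had 0.930, 1.11 and 1.55 scaled TPM, with 6 of 12 ABE-treated mice below all wild-type mice, and a log2 difference of -0.16 ± 0.07 (adjusted p = 0.0345). It was -0.19 and not called with muscle content as a covariate (adjusted p = 0.101), and in males alone it was -0.0017. The call was also lost without any 1 of 10 mice (601F, 602F, 603F, 615M, 617M, F109436, F309468, F509471, F609472 or M109455), at log2 differences from -0.15 to -0.14 and adjusted p from 0.0508 to 0.0665. *Bax* and *Trp53inp1* had log2 differences of 0.07 (adjusted p = 0.135) and -0.04 (adjusted p = 0.703), and *Bax* had 0.08 with muscle content as a covariate (adjusted p = 0.305). *Trp53inp1* was 0.27 higher on the log2 scale with muscle content as a covariate (adjusted p = 0.0442).

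**Figure D2:**
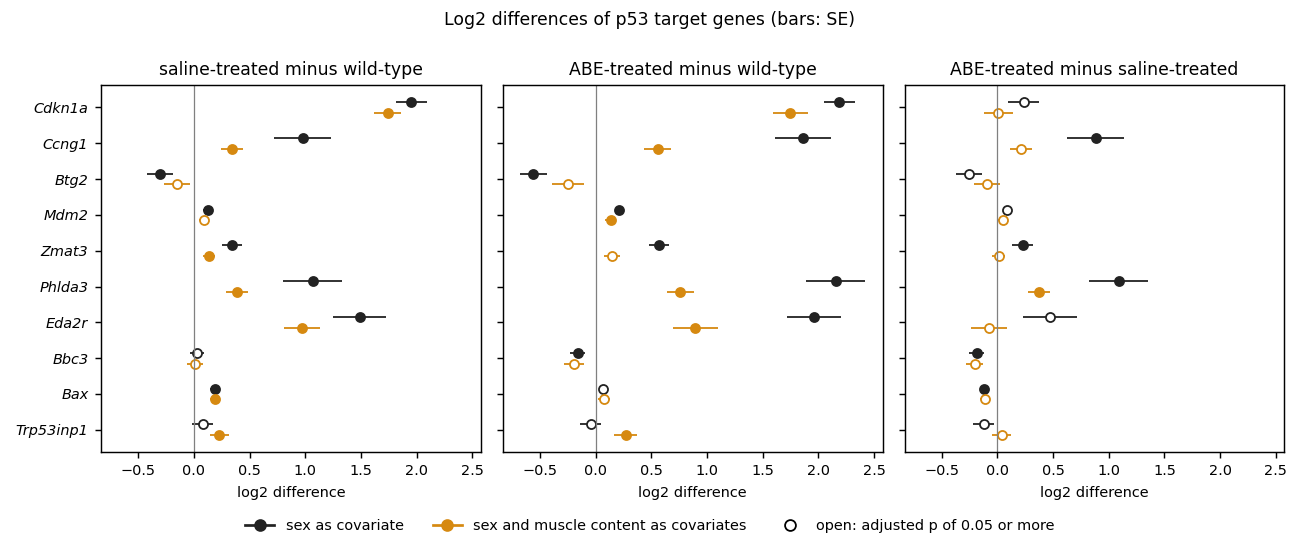
Log2 difference (x axis) of each member (y axis) in the 3 comparisons, with bars for the SE, in black with sex as the covariate and in orange with sex and muscle content. Filled points have an adjusted p under 0.05. The orange points of *Phlda3*, *Ccng1*, *Eda2r* and *Zmat3* sit nearer to 0 than the black ones, and those of *Cdkn1a* against wild-type stay at 1.74 and 1.75.

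The comparison between the LMNA G/G groups, ABE-treated against saline-treated, asks what differed in the LMNA G/G tibia after ABE treatment. Saline-treated mice received no vector, so effects of editing, of AAV9 and of the editor itself cannot be told apart. By the study's account only a part of the transgene copies in bone was corrected. Of the members 3 rose and 2 fell, where 21.5% of all genes rose and 21.6% fell, and the median log2 difference was 0.16, against -0.01 over all genes. With muscle content as a covariate 1 member was higher and the other 9 were not called, where 6.74% of all genes were higher and 3.38% lower. All members overlapped between the groups (0 wholly above, where 0.0222% of all genes were, and 0 wholly below, where 0.00887% were).

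*Phlda3* rose by 1.09 ± 0.27 on the log2 scale (adjusted p = 0.00249) and *Ccng1* by 0.88 ± 0.25 (adjusted p = 0.00653). *Phlda3* was the member still called with muscle content as a covariate, at 0.37 (adjusted p = 0.0159), whereas *Ccng1* had 0.21 (adjusted p = 0.165). With neutrophil, B cell and erythroid content as further covariates *Phlda3* had 0.24 (adjusted p = 0.211). *Zmat3* rose by 0.23 ± 0.09 (adjusted p = 0.0438), a call that was lost without any 1 of 13 mice (F109420, F109436, F309418, F309422, F309468, F509471, M109440, M109455, M109464, M1WT509424, M209511, M309457 or M509459), at log2 differences from 0.17 to 0.23 and adjusted p from 0.0533 to 0.1. *Zmat3* had 0.01 with muscle content as a covariate (adjusted p = 0.919).

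The members that fell were *Bax*, by 0.12 on the log2 scale (SE 0.04, adjusted p = 0.0244), and *Bbc3*, by 0.19 (SE 0.07, adjusted p = 0.0231). Neither was called with muscle content as a covariate, at differences of about the same size, -0.11 for *Bax* (SE 0.05, adjusted p = 0.105) and -0.20 for *Bbc3* (SE 0.07, adjusted p = 0.0721). *Bax* had 1.92, 2.13 and 2.54 scaled TPM in ABE-treated mice as lowest, median and highest. Its adjusted p was 0.0592 with quantile normalization and 0.0786 without the 3 mice with WT in their name. *Cdkn1a* differed by 0.24 ± 0.14 (adjusted p = 0.164), and by 0.01 with muscle content as a covariate (adjusted p = 0.969). In males alone it was 0.38 higher in ABE-treated mice (adjusted p = 0.0460), the 1 member called there, and in females alone 0.09 higher (adjusted p = 0.767), and the difference between the sexes had an adjusted p of 0.561. *Eda2r* differed by 0.47 ± 0.24 (adjusted p = 0.111), a difference that passed the threshold without F1WT609535 (0.60, adjusted p = 0.0300) and was -0.08 with muscle content as a covariate (adjusted p = 0.795). *Mdm2* differed by 0.09 ± 0.04 (adjusted p = 0.0638) and by 0.05 with muscle content as a covariate (adjusted p = 0.421), and its adjusted p was between 0.0368 and 0.0377 without F109420, F1WT609535 or M409458. *Btg2* had a log2 difference of -0.25 ± 0.12 (adjusted p = 0.0835), and of -0.09 with muscle content as a covariate (adjusted p = 0.641), and it passed the threshold without M309451 (-0.31, adjusted p = 0.0224) or M309457 (-0.29, adjusted p = 0.0486). *Trp53inp1* had -0.12 ± 0.09 (adjusted p = 0.309), and 0.04 with muscle content as a covariate (adjusted p = 0.799).

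Males and females were also compared. In saline-treated against wild-type mice 0 members differed between the sexes in their response by limma, where 1.07% of all genes did. By limma-voom on recovered reads 0 members differed. An unadjusted limma p under 0.05 was found for 4 members, and the share of all genes at that threshold was not counted. The lowest adjusted p was that of *Trp53inp1*, at 0.0691, whose log2 difference was 0.35 in females (adjusted p = 0.0932) and -0.19 in males (adjusted p = 0.0286), a difference of -0.54 ± 0.16 between males and females. It passed the threshold, at 1 member, when any of 603F, 615M, F109436 or F109466 was left out or when only these groups were fitted. *Cdkn1a* rose by 1.69 on the log2 scale in females (adjusted p = 5.96e-05) and by 2.21 in males (adjusted p = 1.47e-08), and the difference of 0.52 ± 0.24 had an adjusted p of 0.207. In ABE-treated against saline-treated mice 0 members differed between the sexes by either tool, where 0.0577% of all genes differed by limma. An unadjusted limma p under 0.05 was found for 0 members, again without a share of all genes beside it.

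Members were tied to muscle content within groups to very different degrees. Values were centred within group and sex, over 36 mice, and 10 relations were tested with 100000 permutations, two-sided. The share of all genes tied to muscle content was not counted, so these ties have no background beside them. *Phlda3* had r = 0.96 and rho = 0.95 and *Ccng1* r = 0.95 and rho = 0.95, each with a permutation p of 1e-05, the smallest these permutations can give, and adjusted p = 3.33e-05. *Eda2r* had r = 0.84 and rho = 0.80 (permutation p = 2.00e-05 for both, adjusted p = 5.00e-05 for both) and *Zmat3* r = 0.83 and rho = 0.78 (permutation p = 1e-05 for both, adjusted p = 3.33e-05 for both). Within wild-type mice alone r was 0.95 for *Phlda3*, 0.91 for *Ccng1*, 0.90 for *Eda2r* and 0.83 for *Zmat3*, so the relation was present in mice without the transgene.

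*Cdkn1a* was less closely tied to muscle content, with r = 0.56 (permutation p = 0.00138, adjusted p = 0.00268) and rho = 0.47 (permutation p = 0.00675, adjusted p = 0.00964), and *Mdm2* had r = 0.56 (permutation p = 0.00386, adjusted p = 0.00551) and rho = 0.52 (permutation p = 0.00428, adjusted p = 0.00713). Within wild-type mice *Mdm2* had r = -0.13, within saline-treated mice 0.75 and within ABE-treated mice 0.73. *Btg2* and *Trp53inp1* were lower where muscle content was higher, with r = -0.39 (permutation p = 0.0192, adjusted p = 0.0240) and rho = -0.39 (permutation p = 0.0224, adjusted p = 0.0280) for *Btg2* and r = -0.53 (permutation p = 0.00161, adjusted p = 0.00268) and rho = -0.60 (permutation p = 0.000400, adjusted p = 0.000800) for *Trp53inp1*. *Bbc3* (r = 0.03, rho = -0.17) and *Bax* (r = -0.02, rho = -0.09) had adjusted permutation p of 0.915 for r and of 0.403 and 0.619 for rho. Without the 2 libraries farthest from the median muscle content, wild-type 599M and 617M, r was 0.95 for *Phlda3*, 0.97 for *Ccng1*, 0.85 for *Eda2r*, 0.83 for *Zmat3*, 0.57 for *Cdkn1a*, 0.58 for *Mdm2*, -0.39 for *Btg2*, -0.54 for *Trp53inp1*, -0.00 for *Bbc3* and -0.15 for *Bax*.

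**Figure D3:**
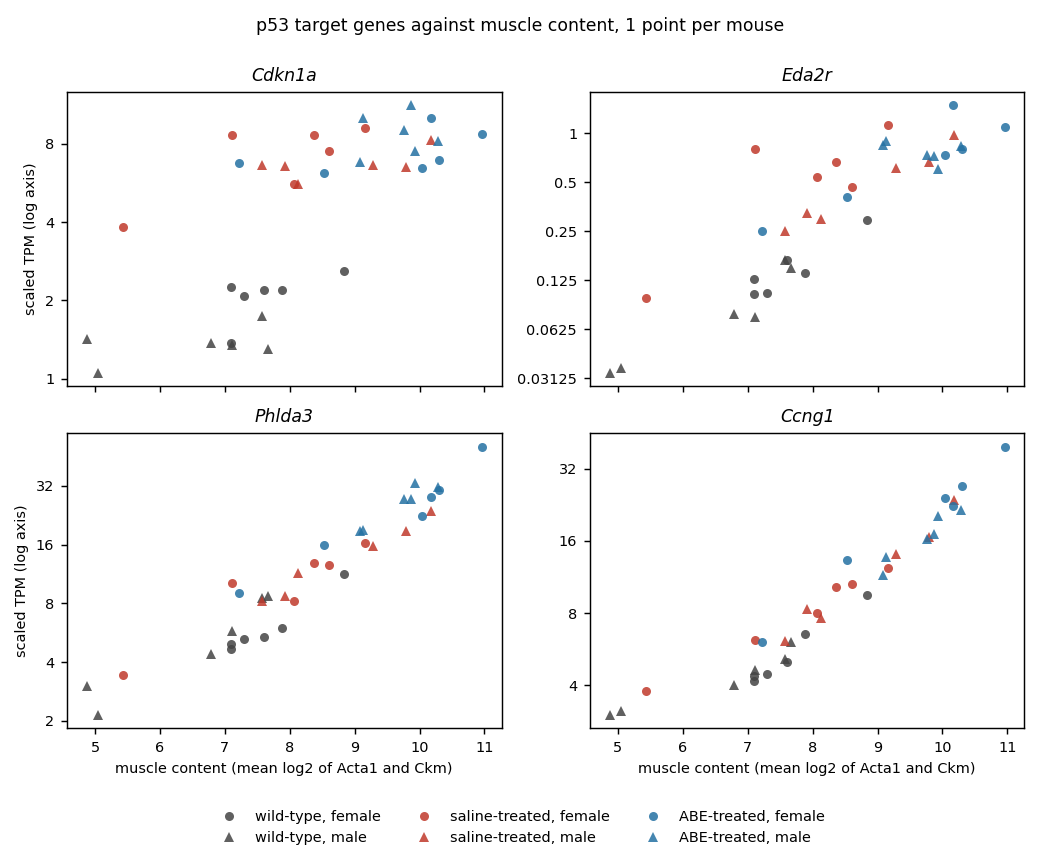
Scaled TPM (y axis, log scale) of *Cdkn1a*, *Eda2r*, *Phlda3* and *Ccng1* against muscle content (x axis, mean log2 of *Acta1* and *Ckm*), with 1 point per mouse, coloured by group, circles for females and triangles for males. *Phlda3* and *Ccng1* follow muscle content in all groups, though both stayed higher than in wild-type mice with it as a covariate. Wild-type mice lie below LMNA G/G mice for *Cdkn1a* over the muscle content that the groups share. Wild-type muscle content ends at 8.83 (604F).

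The members did not move as a single block. Of 45 pairs, 23 were tied within groups, 14 in the same direction and 9 in opposite directions, and r ranged from -0.62 (*Cdkn1a* with *Btg2*) to 0.92 (*Phlda3* with *Ccng1*). How often pairs of other genes are tied was not counted. With muscle content removed from each member, which was added after the data were seen, 9 pairs were tied. These include pairs that were not tied before: *Ccng1* with *Bbc3*, which went from r = -0.14 to -0.52 (adjusted permutation p = 0.0175), and *Ccng1* with *Bax*, from -0.17 to -0.49 (adjusted permutation p = 0.0181). *Phlda3* with *Ccng1* then had r = 0.16, and *Phlda3* with *Eda2r* went from r = 0.84 to 0.22. *Cdkn1a* with *Zmat3* went from r = 0.78 to 0.69 (adjusted permutation p = 0.00360), *Cdkn1a* with *Eda2r* from 0.70 to 0.52 (adjusted permutation p = 0.0453) and *Eda2r* with *Zmat3* from 0.89 to 0.63 (adjusted permutation p = 0.0152). The apoptotic pair *Bbc3* and *Bax* had r = 0.60 both before and after (adjusted permutation p = 0.00186 and 0.0142). *Cdkn1a* with *Btg2* had -0.62 before and -0.52 after (adjusted permutation p = 0.000150 and 0.0179).

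**Figure D4:**
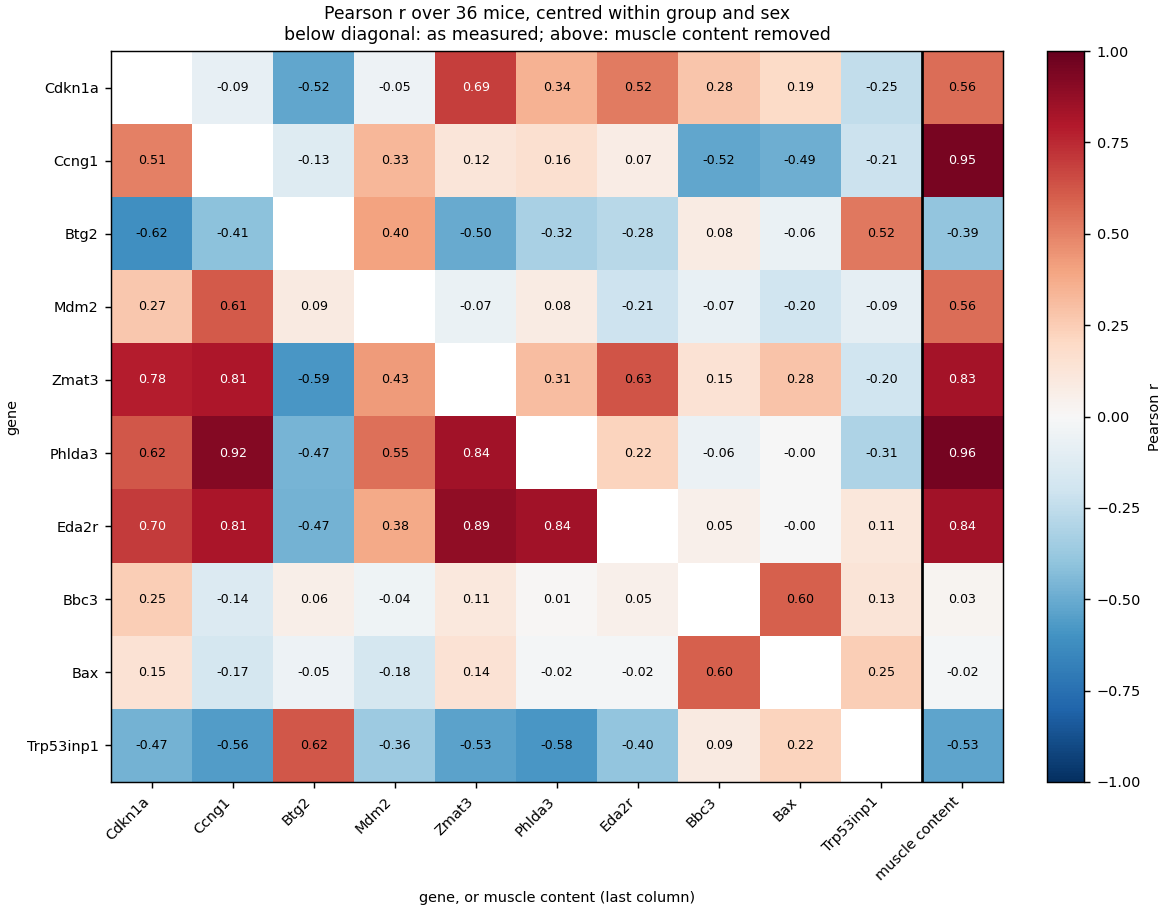
Pearson r between members over 36 mice, centred within group and sex, as measured below the diagonal and with muscle content removed above it, with r against muscle content in the last column (colour scale from -1 to 1). The block of *Zmat3*, *Phlda3*, *Eda2r* and *Ccng1* is dark red below the diagonal, and above the diagonal *Eda2r* with *Zmat3* (0.63) is its strongest pair. Outside that block, *Cdkn1a* with *Zmat3* has 0.69 above the diagonal.

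Genes most like each member were sought among 12350 genes with a mean of at least 1 scaled TPM, by r over the 36 mice centred within group and sex, as a description. Those of *Phlda3* included *Ldb3* and *Sgca* (r = 0.98 for each), which encode a protein of the muscle Z-disc and a sarcoglycan, and whose own r with muscle content was 0.99 and 0.97. Those of *Ccng1* were *Zfp106*, *Epm2a* and *Cystm1* (r = 0.98 for each) and those of *Eda2r* were *Pdlim3*, *Hspb8* and *Hspb1* (r = 0.95, 0.94 and 0.93), the last pair small heat shock proteins. Those of *Zmat3* were *Slc35e4*, *Mapre3* and *Atoh8* (r = 0.92 for each). *Cdkn1a* was most like *Pdgfa*, a growth factor subunit, *Zfp462*, and *Cspg4*, a proteoglycan of pericytes (r = 0.90, 0.83 and 0.80), whose r with muscle content was 0.56, 0.74 and 0.47. *Mdm2* was most like *Suds3* and *Fam53c* (r = 0.88 and 0.86), *Btg2* like the splicing factors *Srsf1* and *Srsf2* and *Becn1* (r = 0.89, 0.89 and 0.88), and *Bax* like *Icam1*, *Nid2* and *Arl8a* (r = 0.72, 0.72 and 0.70).

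The wider p53 pathway was read from lists of 53 further targets, of which 51 were tested. Against wild-type mice, 20 were higher and 11 lower in saline-treated mice, in ABE-treated against wild-type mice 23 and 19, and in ABE-treated against saline-treated mice 12 and 16. Over all genes the shares were 25.3% and 24.7%, 32.9% and 34.0%, and 21.5% and 21.6%, and several of these counts lie near them. The same shares stand behind the smaller lists below, whose counts rest on few genes each and in part lie near them. Their median log2 differences were 0.14, -0.01 and -0.08. With muscle content as a covariate 18 were higher and 7 lower, 16 and 6, and 2 and 2. Over all genes the shares in that fit were 21.9% and 22.2%, 18.7% and 17.1%, and 6.74% and 3.38%.

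Among 8 other arrest genes tested, 3 rose and 1 fell in saline-treated against wild-type mice, and 4 rose and 3 fell in ABE-treated against wild-type mice. *Plk2*, a polo-like kinase, rose by 0.63 and 0.99 on the log2 scale, and *Sfn*, which encodes the checkpoint protein 14-3-3 sigma, fell by 0.70 and 0.86. *Plk3* and *Sertad1* rose by 0.38 and 0.21 in saline-treated mice, *Ptprv* and *Trp53cor1* rose by 0.59 and 0.44 in ABE-treated mice, and *Psrc1* and *Gadd45a* fell there by 0.55 and 0.39. Between the LMNA G/G groups 3 rose (*Ptprv*, *Plk2* and *Trp53cor1*, by 0.47, 0.36 and 0.28) and 2 fell (*Gadd45a* and *Psrc1*, by 0.63 and 0.41).

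Of 12 other apoptosis genes 5 rose and 2 fell in saline-treated against wild-type mice, 5 rose and 6 fell in ABE-treated against wild-type mice, and 2 rose and 6 fell between the LMNA G/G groups. *Perp*, a desmosomal membrane protein, had a median of 0.108 scaled TPM in wild-type mice, 0.296 after saline and 0.307 after ABE, and rose by 0.97 and 0.90 against wild-type. *Ei24* and the death receptor *Fas* rose by 0.40 and 0.37 in saline-treated mice and by 0.64 and 0.46 in ABE-treated mice. *Pidd1*, which scaffolds caspase-2, fell by 0.89 and 1.46, and *Trp53i11* by 0.44 in saline-treated mice. *Bid* and *Apaf1* fell by 0.92 and 0.58 in ABE-treated against wild-type mice. Between the LMNA G/G groups *Aen* and *Ei24* rose by 0.27 and 0.25, and *Bid*, *Pidd1* and *Apaf1* fell by 0.60, 0.57 and 0.34.

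Of 7 DNA repair genes 2 rose and 3 fell in saline-treated against wild-type mice, 3 rose and 4 fell in ABE-treated against wild-type mice, and 2 rose and 1 fell between the LMNA G/G groups. The translesion polymerase *Polk* rose by 0.39 and 0.46 and the nuclease *Ercc5* by 0.24 and 0.51 against wild-type. *Fancc*, *Ddb2* and *Xpc* fell by 0.27, 0.19 and 0.13 in saline-treated mice, and *Mgmt*, *Fancc* and *Ddb2* by 0.48, 0.37 and 0.20 in ABE-treated mice. *Rrm2b*, the p53-inducible ribonucleotide reductase subunit, rose by 0.36 in ABE-treated against wild-type mice. Between the LMNA G/G groups *Rrm2b* and *Ercc5* rose by 0.30 and 0.27 and *Mgmt* fell by 0.31.

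Of 13 metabolic targets 6 rose and 2 fell in saline-treated against wild-type mice, 7 rose and 1 fell in ABE-treated against wild-type mice, and 4 rose and 3 fell between the LMNA G/G groups. *Ddit4*, an inhibitor of mTOR signalling that also responds to hypoxia and glucocorticoids, had a lowest, median and highest level of 2.43, 5.62 and 10.1 scaled TPM in wild-type mice, 9.25, 25.4 and 37.0 after saline and 16.2, 22.9 and 31.1 after ABE. It rose by 2.03 ± 0.19 (adjusted p = 1.72e-10) and 1.95 ± 0.19 (adjusted p = 2.51e-10) on the log2 scale, and by 1.97 and 1.83 with muscle content as a covariate. *Tigar*, a fructose bisphosphatase, rose by 0.71 and 1.72, and by 1.01 between the LMNA G/G groups, but had 0.06 in saline-treated against wild-type mice with muscle content as a covariate (adjusted p = 0.679). *Dcxr* rose by 0.39 and *Fdxr* and *Sesn1* fell by 0.15 and 0.17 in saline-treated mice. In ABE-treated mice *Ephx1* rose by 0.76 and *Sesn1* fell by 0.25 against wild-type. Between the LMNA G/G groups *Ephx1* and *Cpt1c* rose by 0.45 and 0.40, and *Sat1*, *Sesn2* and *Abhd4* fell by 0.24, 0.21 and 0.17.

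Of 11 secreted and feedback targets tested 4 rose and 3 fell in saline-treated against wild-type mice, 4 rose and 5 fell in ABE-treated against wild-type mice, and 1 rose and 4 fell between the LMNA G/G groups. *Igfbp3*, a binding protein of insulin-like growth factors, rose by 0.77 and 0.93 and *Zfp365* by 0.50 and 0.66. *Thbs1* fell by 0.45 and 0.94, *Wrap53* by 0.34 and 0.48, *Rchy1* by 0.15 in saline-treated mice and *Ppm1d*, the phosphatase that resets p53, by 0.37 in ABE-treated mice. Between the LMNA G/G groups *Dglucy* rose by 0.28, and *Thbs1*, *Gdf15* and *Ppm1d* fell by 0.49, 0.41 and 0.34.

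Of 13 regulators of p53 3 rose and 1 fell in saline-treated against wild-type mice, 1 rose and 7 fell in ABE-treated against wild-type mice, and 1 rose and 6 fell between the LMNA G/G groups. *Trp53* had 2.96 ± 0.52 scaled TPM in ABE-treated mice and fell by 0.27 against wild-type (adjusted p = 0.00631) and by 0.30 against saline-treated mice (adjusted p = 0.00627), while its log2 differences with muscle content as a covariate were 0.07 and -0.12 (adjusted p = 0.514 and 0.212). *Mdm4*, the partner of MDM2, fell by 0.27 (saline-treated) and 0.29 (ABE-treated) against wild-type. *Trp63*, a p53 relative, rose by 0.62 and 1.13 from a median of 0.0445 scaled TPM in wild-type mice, and by 0.51 between the LMNA G/G groups. The ribosomal proteins *Rpl11* and *Rpl5*, which bind MDM2, rose by 0.41 and 0.29 in saline-treated mice. The checkpoint kinases *Chek2* and *Chek1* and the deubiquitinase *Usp7* fell by 0.98, 0.69 and 0.41 in ABE-treated against wild-type mice and by 0.60, 0.50 and 0.34 against saline-treated mice.

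**Figure D5:**
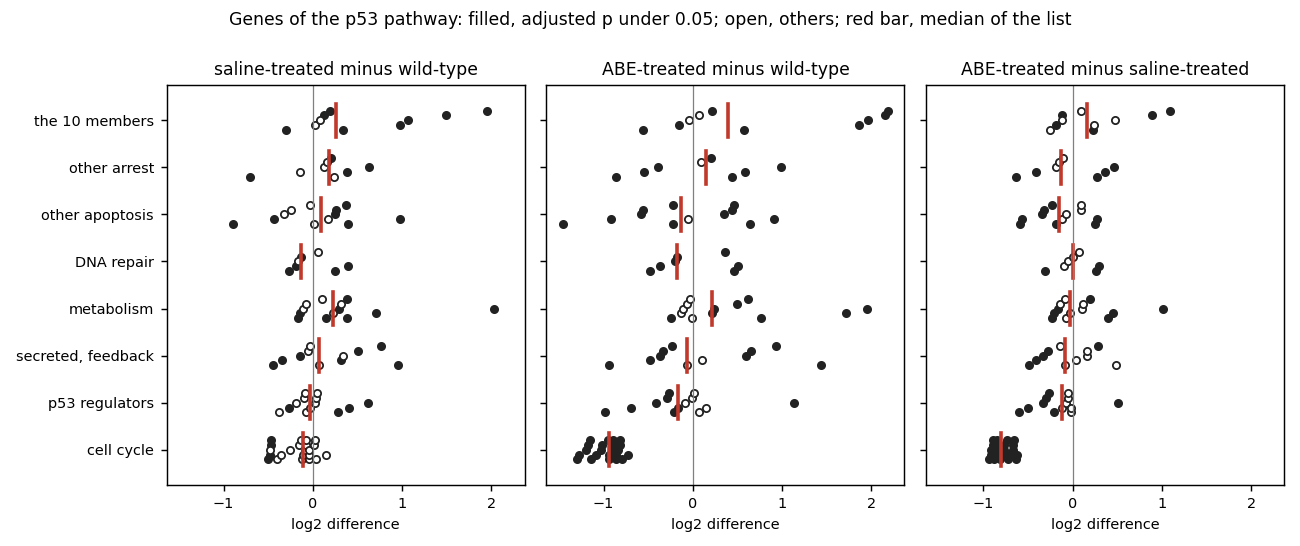
Log2 difference (x axis) of each gene of the p53 lists, the p53 regulators and the cell cycle genes (y axis, 1 row per list) in the 3 comparisons, filled where the adjusted p was under 0.05, with a red bar at the median of the list. The lists of p53 targets scatter to both sides of 0, and the cell cycle genes all lie below 0 in both panels with ABE-treated mice.

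p21 acts on cyclin-dependent kinases and, through the DREAM repressor complex, on cell cycle genes. Of 22 cell cycle genes, 4 fell in saline-treated against wild-type mice and 18 were not called, with a median log2 difference of -0.12. Over all genes 24.7% fell there. In ABE-treated mice 22 of 22 fell both against wild-type mice (median -0.94) and against saline-treated mice (median -0.81), where 34.0% and 21.6% of all genes fell. Whether these falls are tied to p21 was not tested. *Cdkn1a* itself was not called between the LMNA G/G groups, and most neutrophil and erythroid markers fell between them. *Mybl2*, *Aurkb* and *Cenpa* fell by 1.3, 1.27 and 1.19 against wild-type, and *Ccnb2*, *Ccnb1* and *Rrm2* by 0.94, 0.92 and 0.92 against saline-treated mice, whereas *E2f1*, *Cenpa* and *Cdc25c* fell by 0.50, 0.48 and 0.47 in saline-treated mice. With muscle content as a covariate 6 of the 22 fell in ABE-treated against wild-type mice, where 17.1% of all genes fell. In that fit 1 rose in saline-treated against wild-type mice, where 21.9% of all genes rose. The 22 genes were not called between the LMNA G/G groups, where 3.38% of all genes fell. *Cdkn1c*, which encodes p57 of the same inhibitor family as p21, rose by 0.48 and 0.88 against wild-type and by 0.41 between the LMNA G/G groups. *Cdkn1b*, which encodes p27, fell by 0.28 in ABE-treated against wild-type mice and by 0.18 between the LMNA G/G groups, and neither was called with muscle content as a covariate.

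Cell types other than muscle differed between the groups as well. Transcripts of blood cells remained in these libraries. In wild-type mice the median summed level was 1450 scaled TPM for neutrophil, 247 for erythroid and 21.5 for osteocyte markers. Osteocyte markers, 5 genes led by *Sost*, had a summed level from 9.91 to 48.0 scaled TPM in wild-type mice, from 169 to 488 after saline and from 172 to 344 after ABE, and 4 and 5 of the 5 rose against wild-type. Osteoclast markers, 7 genes led by *Ctsk*, had from 115 to 236, from 137 to 594 and from 116 to 476 scaled TPM, and 7 and 5 rose. Cartilage markers, 7 genes led by *Prg4*, fell at 6 and 5 of 7, from 85.9 to 240 in wild-type to between 16.4 and 54.3 and between 21.9 and 61.8. Of 9 B cell markers, led by *Cd79b*, 6 and 8 fell against wild-type. In ABE-treated against saline-treated mice 7 of 9 neutrophil markers, led by *S100a9*, and 6 of 7 erythroid markers, led by *Slc4a1*, fell. All markers of these lists were above 0 in each group. Their part in the differences of the p53 targets was not tested, beyond the fit with neutrophil, B cell and erythroid content as further covariates, in which *Cdkn1a* had log2 differences of 1.86 (adjusted p = 4.09e-07) and 1.79 (adjusted p = 1.11e-06) from wild-type.

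On TPM as deposited, without rescaling, the median gene lay lower by -0.16, -0.49 and -0.31 log2 units in the 3 comparisons. In saline-treated against wild-type mice 4 members rose and the others were not called. In ABE-treated against wild-type mice 4 rose and 5 fell, and between the LMNA G/G groups 1 rose and 3 fell. The share of all genes called was not counted on this scale, so these counts have no background beside them. The differences of *Mdm2*, *Bax* and *Zmat3* are therefore relative to the median gene.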

How the data were processed

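Poly(A) RNA of 36 tibiae was sequenced, and the authors deposited TPM, a measure scaled for the length of each gene and the size of each library. Reads had been aligned by the authors to GRCm38 with STAR 2.73a (submitters' processing notes) and counted with QoRTs on GENCODE genes. The calculation of TPM is not given in the sources used here. The deposited gene length, in bases and of no further unit (other), was used with TPM to recover reads: 100% of values were whole reads, within a tolerance of 0.01, divided by length less 218 bases and multiplied by a constant per library. Genes of at most 219 bases held 84.7% to 96.6% of a library's TPM.

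TPM were scaled by median ratios over the 23632 genes above 0 in all libraries. limma 3.58.1 (R 4.3.3) was fitted to log2(scaled TPM + 0.1) of 22546 genes whose mean reached 0.1, with group and sex, over 36 libraries, and p-values were adjusted by Benjamini-Hochberg over all these genes. An adjusted p under 0.05 is a call. A log2 difference on this scale understates changes of low genes. Alternatives were TPM as deposited, quantile normalization, pseudocounts of 0.5 and 0.02, a mean of at least 0.5 (15902 genes) or no filter (43628 genes), no sex covariate, muscle and blood cell covariates, only the groups compared, either sex alone, each library left out, and limma-voom on recovered reads. The script was tested on simulated data. Correlations used 100000 permutations within group and sex (numpy 2.4.6, Python 3.11.15), adjusted over the 10 or 45 relations of a family. Median depth was 78234452.5 reads on genes. Of the library pairs, 0 were identical.

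The members, gene lists and tests were chosen with earlier results of these data known. Named genes were the 10 members, *Trp53*, *Mdm4*, *Acta1*, *Ckm*, *Cdkn1b*, *Cdkn1c*, up to 3 called genes in each direction per p53 or cell cycle list and comparison, the marker with the highest mean per cell type list, and the 3 genes most like each member called between saline-treated and wild-type mice. Marker lists of osteoblasts (3 of 7 rose in either LMNA G/G group, led by *Col1a1*), adipocytes (1 of 5 rose and 2 fell in saline-treated, 3 fell in ABE-treated mice, led by *Adipoq*) and endothelium (3 and 5 of 5 rose, led by *Cdh5*) were also read. Samples are single mice, mapped by genotype and treatment labels. The human transgene and the editor were not analysed here. Some genes that this rule names are not reported here.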

Additional observations from a re-analysis of the deposited data

How the results depend on the processing

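*Cdkn1a* against wild-type kept its direction and call under the alternatives run, and so did *Eda2r*, which the filter at a mean of 0.5 leaves out, as did *Phlda3* and *Ccng1* in ABE-treated against wild-type mice apart from *Ccng1* with 4 cell type covariates (0.44, adjusted p = 0.0574). In saline-treated against wild-type mice 4 members were called on TPM as deposited and 3 in females alone, against 8. In ABE-treated against wild-type mice 5 were called with muscle, neutrophil, B cell and erythroid content as covariates, against 8. In ABE-treated against saline-treated mice, against 5, muscle content as a covariate gave 1, the 4 cell type covariates 1 (*Bax*, lower), females alone 3 and males alone 1 (*Cdkn1a*, higher). For the sex interaction of saline-treated against wild-type mice, fitting only the 2 groups compared gave 1, against 0. Leaving out each library gave 7 to 8, 7 to 8 and 4 to 7 members in the 3 comparisons and 0 to 1 and 0 to 0 in the interactions. Apart from muscle content as a covariate, the share of all genes called was not counted under these alternatives. Their counts of members therefore have no background beside them. Members tied to muscle content numbered 4 on TPM as deposited, 5 in wild-type alone and 3 in ABE-treated alone, against 8, and 8 without F109436. Tied pairs numbered 15 in wild-type alone, 12 in saline-treated alone, 1 in ABE-treated alone and 9 with muscle content removed, against 23. The smaller groups have fewer libraries, and other causes were not tested. Ties among genes other than the members were not counted.

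Signs turned on TPM as deposited, whose median gene lies lower, for *Mdm2* (-0.0681, -0.35 and -0.29 in the 3 comparisons), *Bax* (-0.0020 and -0.48 against wild-type), *Bbc3* (-0.16) and *Trp53inp1* (-0.11) in saline-treated against wild-type mice, and *Cdkn1a* (-0.14) and *Zmat3* (-0.10) between the LMNA G/G groups. In saline-treated against wild-type mice *Bbc3* had -0.0189 in females alone and *Trp53inp1* -0.19 in males alone. *Trp53inp1* in ABE-treated against wild-type mice had 0.27 with muscle content, 0.30 with 4 cell type covariates, 0.22 in females alone, and from -0.0923 to 0.0029 with each library left out, above 0 without F109436. Between the LMNA G/G groups, muscle content as a covariate gave -0.0757 for *Eda2r* and 0.0392 for *Trp53inp1*, and the 4 cell type covariates gave -0.0652 for *Cdkn1a*, -0.22 for *Eda2r*, -0.0833 for *Zmat3* and 0.0560 for *Btg2*. No paired analysis was possible because the mice carry no replicate numbers shared between groups. Limits are the low level of *Eda2r* in wild-type mice (66 reads at the least), muscle content that differs between the groups, wild-type mice in a number series of their own, and transcripts measured without protein. Osteocyte and osteoclast markers also differed from wild-type mice and were not used as covariates.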
